A study of Mus musculus with 180 samples.

Results

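The numbered Zfp genes are mouse zinc finger genes whose symbol is Zfp followed by digits alone, and 110 of them are described here in macrophages that were treated with kinase inhibitors and stimulated with lipopolysaccharide (LPS). The members were chosen by symbol and selected on a mean normalised read count of 50 or more over the 180 samples, with Zfp36 left out. They are 110 of 370 such genes, in a table of 45070 gene rows. Filgotinib and BMS-911543 were singled out in the same choice with earlier results of these data known, so member counts and fold changes with these inhibitors are given as a description, and the other 56 inhibitors are tested.

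The study asked how clinical kinase inhibitors act on activated macrophages, and measured polyadenylated RNA in bone marrow-derived macrophages (BMDM) by SMART-seq2. The cells were grown from the marrow of wild-type male C57/BL6 mice aged 6 to 8 weeks. Each of the 58 inhibitors has 3 samples, and the solvent DMSO has 6 in 2 sets named DMSO_s1 and DMSO_s2, pooled here as the reference. Every group, the DMSO controls included, received its compound for 1 h and then LPS at 10 ng/mL for 2 h, so no unstimulated cells are among the samples. Replicate samples of an inhibitor carry the numbers 1 to 3, which are treated as labels with no order.

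A C2H2 zinc finger folds around a zinc ion and reads a few bases of DNA, and arrays of such fingers give each protein its own target sequence. Many members of the family start with a KRAB box, which recruits the corepressor TRIM28 and through it the histone methyltransferase SETDB1 to silence transposable elements and some genes. Members without a KRAB box include promoter-binding activators, splicing and spindle proteins and proteins that bind RNA, so the shared symbol is a name for a fold and not for a function.

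The macrophage label was checked against marker genes. Of the 9 macrophage markers examined, 9 were present, led by the lysozyme gene Lyz2, and their summed normalised read count was 88403 at lowest, 150717 at the median and 252519 at highest over the 180 samples. The 8 neutrophil markers summed to between 217 and 2141, led by S100a8, with the defining marker Ly6g at a median of 0. The 5 dendritic cell markers summed to between 35 and 162 and were led by Xcr1. The 3 B cell markers reached at most 5 in a sample, the 2 T cell markers in the table at most 2, the 3 mast cell or basophil markers at most 4 and the 2 erythroid markers at most 2. The 4 stromal markers, led by Col1a1, summed to between 4 and 222.

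The neutrophil sum was 267 at lowest, 428.5 at the median and 932 at highest in DMSO, 544 to 911 with Filgotinib and 604 to 754 with BMS-911543. The macrophage sum was 103249, 118465 and 218486 in DMSO at lowest, median and highest, 127885 to 191737 with Filgotinib and 141756 to 176148 with BMS-911543. The ranges overlap for both lists, and their part in the results below was not tested. In bulk RNA, fewer cells of a type and less RNA per cell cannot be told apart.

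The normalised values of a sample summed to 9477340 at lowest, 10521148.5 at the median and 12273349 at highest. The factor by which each sample had been scaled could be read back from the spacing of its values in 173 samples, 5 of the DMSO samples among them, and the reads on genes before scaling then came to about 6540000 at lowest, 12320000 at the median and 17040000 at highest. They came to between 11360000 and 13570000 in DMSO, between 12800000 and 13340000 with Filgotinib and between 12550000 and 13860000 with BMS-911543, so the groups lie close together. The DMSO_s1 replicate 3 sample stood apart: the mean log2 level of the members was 6.66 in it against 6.93 to 7.04 in the other DMSO samples, and the mean over all genes tested was 7.23 against 7.38 to 7.47. The mean over members with a KRAB box was 6.24 in it and 6.3 in DMSO_s2 replicate 2, against 6.54 to 6.69 in the remaining DMSO samples, while DMSO_s2 replicate 2 had the highest DMSO mean, 7.39, over members without one. DMSO_s1 replicate 3 had the lowest DMSO value for 42 of the 110 members. The member counts with Filgotinib, with BMS-911543 and over the other inhibitors together are also given without it.

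The members were moderately abundant. Their mean over all samples ran from 50.8 to 2296.1 with a median of 121.8, against a median of 174.9 over the 12714 genes tested, which are those with a mean of 10 or more. All 110 members passed that filter, 43 had a mean between 50 and 100, and 5 a mean of 500 or more. No member was at 0 in any sample, and the lowest single value was 14. Together they held 0.191% of the summed values, and the 5 most abundant members held 28.1% of the members' own sum.

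Just inside the threshold stood Zfp654 with a mean of 50.76, Zfp560 with 52.14 and Zfp142 with 53.22. Just outside it stood Zfp777 with 49.84, Zfp787 with 49.42 and Zfp189 with 49.02. Of the numbered Zfp genes left out, 129 were tested with a mean under 50, 131 had a mean under 10, and 7 of those were at 0 in every sample.

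Levels of different genes are compared per kb of transcript. Zfp263 was the highest at 708 normalised reads per kb. Its value was 1463 at lowest, 2272.5 at the median and 3302 at highest over all samples, and 2125, 2196.5 and 2325 in DMSO, so its spread in DMSO was narrow beside its spread over the series. Zfp706 followed at 257 per kb and Zfp207 at 227 per kb. Zfp207 encodes a microtubule-binding protein that escorts the spindle checkpoint protein Bub3 to kinetochores. Its value was 1011 at lowest, 1099.5 at the median and 1117 at highest in DMSO, and its highest value in the series, 1561, was in a Filgotinib sample. Zfp871 stood at 53.7 per kb and Zfp106, an RNA-binding protein needed for the upkeep of motor neurons and muscle, at 59.6 per kb. The lowest value of Zfp871 in the series, 239, and that of Zfp106, 294, were both in DMSO_s1 replicate 3. The lowest member per kb was Zfp236 at 5.5.

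**Figure D1:**
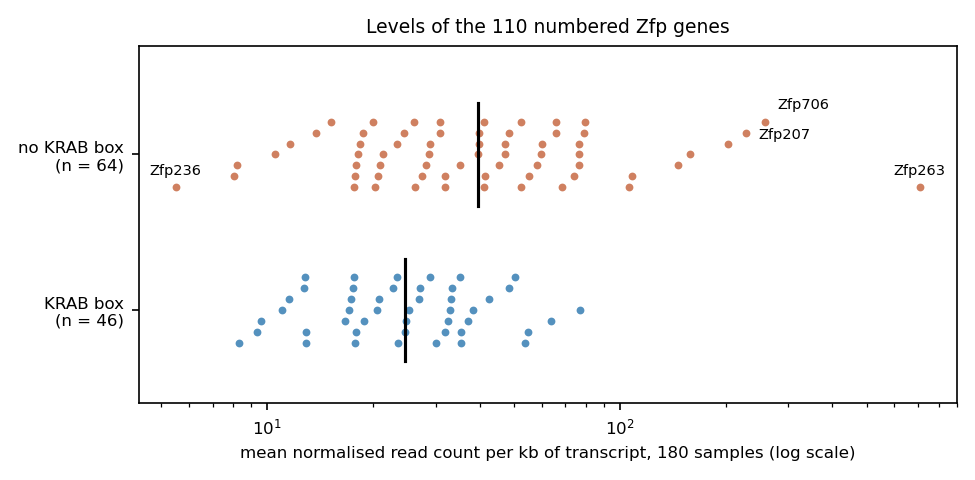
Mean normalised read count per kb of transcript (log scale) of the 110 numbered Zfp genes, each a point, split by whether a KRAB box was found, with the vertical offsets there to separate points. The black lines mark the medians, 24.6 per kb for the 46 genes with a KRAB box and 39.6 for the 64 without, and Zfp263 stands alone at 708.

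A KRAB box was found in 46 of the 110 members, or 41.8%, and in 91 of the 128 less abundant numbered Zfp genes with a coding transcript, or 71.1%. Members with a KRAB box had a median of 24.6 normalised reads per kb, from 8.3 to 77.1, with Zfp212 the highest. Members without a KRAB box had a median of 39.6 per kb. The members with a KRAB box all lie within the range of the others. The median number of C2H2 finger matches was 11.5 in members with a KRAB box, from 4 to 23, and 8 in the others, where it ran from 0 in Zfp330 and Zfp703 to 37 in Zfp142. Zfp703 belongs to a small family of corepressors with an atypical finger, which the match used here does not find.

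The members lie on 18 chromosomes, with 27 on chromosome 7 and 11 on chromosome 17. Within 200000 bases of another member lay 35 of them, in 13 clusters, and 25 of these 35 had a KRAB box. The largest cluster held Zfp84, Zfp790, Zfp568, Zfp260 and Zfp382 on chromosome 7. Zfp53, Zfp52 and Zfp948 lie side by side at chr17:21488988-21588699 in the build mm10, each has a KRAB box, and each was called higher with Filgotinib. Of the 35 members near another, 7 were higher and 2 lower, where 6.10% and 14.6% of all genes tested were. The Zfp52 samples, at 148, 162 and 101, overlap DMSO, whose highest value was 111. The Zfp53 call was lost in 8 alternatives.

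Members share sequence with other genes and with each other, which bears on how reads are assigned. Of the 110, 40 had no window of 50 bases in common with another gene, and 18 had at least 20% of their windows in common. Zfp991 shared 87% with Znf41-ps, Zfp90 shared 84.7% with Gm26786, Zfp213 shared 52.3% with Gm26695, and Zfp992 shared 43.7% with Zfp991. A gene on the opposite strand overlapped 19 members, and for 12 of them that gene had a mean of 10 or more. How far shared reads entered the values was not tested.

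Filgotinib, an inhibitor of JAK1, went with changes of members in both directions. Adjusted p-values are those of limma with Benjamini-Hochberg adjustment over the 12714 genes, called at under 0.05. Higher than DMSO were 17 of 110 members, where 6.10% of all genes tested were higher. Lower were 7 members, where 14.6% of all genes were lower. Since the choice of the members used this comparison, nothing is read from these counts. Values of single members below are given without p-values, and a call can be lost without a sample because fewer samples remain, also where the fold change stays the same. With the replicate number added to the model as a block 22 members were higher and 12 lower, where 10.1% and 19.9% of all genes were. The members' median log2 fold change was 0.12, from −1.42 to 1.35, against −0.04 over all genes, and 70 of 110 were above 0. In 12 members the 3 Filgotinib samples lay above all 6 DMSO samples, where 7.05% of all genes tested did, and in 7 they lay below, where 10.5% did.

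Zfp948, a KRAB protein with 15 fingers, had 101, 125 and 102 normalised reads in the Filgotinib samples and 22 at lowest, 46.5 at the median and 71 at highest in DMSO. No Filgotinib sample overlaps the DMSO range. The log2 fold change was 1.35 (SE 0.30, n = 3 and 6). Zfp954, another KRAB gene, had 92, 133 and 87 against 31, 53.5 and 56 in DMSO, again with no overlap and with replicate 2 highest. Its log2 fold change was 1.04 (SE 0.25).

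Zfp143, which binds promoters and helps to form chromatin loops, had 185, 199 and 172 with Filgotinib against 81 at lowest, 103 at the median and 142 at highest in DMSO. The Filgotinib samples lie close together and above every DMSO sample, with a log2 fold change of 0.86 (SE 0.16). Zfp638, which silences unintegrated retroviral DNA together with the HUSH complex, had 253, 273 and 280 against 81, 204.5 and 232. Its lowest DMSO value, 81, is DMSO_s1 replicate 3, the next is 179, and without that sample the log2 fold change went from 0.6 to 0.38 and was no longer called. The KRAB genes Zfp715 and Zfp53 had 130, 167 and 130 against 52, 93 and 121, and 78, 86 and 67 against 41, 49.5 and 58. Their log2 fold changes were 0.66 (SE 0.23) and 0.62 (SE 0.22), without overlap but close to the DMSO range. Zfp715 was not called without DMSO_s1 replicate 3, where it was 0.5, or without Filgotinib replicate 1 (0.72), 2 (0.54) or 3 (0.72). Zfp53 was not called without Filgotinib replicate 1 (0.61) or 2 (0.54), DMSO_s1 replicate 1 (0.57) or DMSO_s2 replicate 2 (0.61).

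The largest difference downwards was that of Zfp213, a KRAB protein with 5 fingers. It had 56, 51 and 75 normalised reads with Filgotinib and 95 at lowest, 169.5 at the median and 304 at highest in DMSO. The DMSO samples spread widely, yet none reaches down to the Filgotinib samples, and the log2 fold change was −1.42 (SE 0.32, n = 3 and 6). Zfp324, also with a KRAB box, had 33, 31 and 54 against 58, 101.5 and 129, with a log2 fold change of −1.29 (SE 0.33). Zfp282 had 36, 85 and 68 against 93, 132 and 203, and its highest Filgotinib value lies just under the lowest DMSO value. That Filgotinib value is of replicate 2, and the DMSO samples numbered 2 had 113 and 203. The log2 fold change of Zfp282 was −1.13 (SE 0.35), and −0.78 without Filgotinib replicate 1, where it was not called.

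Zfp467, a factor with a role in the choice between fat and bone cells, had 69, 74 and 62 with Filgotinib against 108 at lowest, 118.5 at the median and 167 at highest in DMSO, with no overlap and a log2 fold change of −0.86 (SE 0.21). Zfp281, a binder of GC-rich promoters known from pluripotent stem cells, had 312, 364 and 344 against 460, 504 and 630. Its Filgotinib samples all lie below DMSO, and the log2 fold change was −0.63 (SE 0.16). Zfp319 had 310, 283 and 345 against 379, 429 and 712, with a log2 fold change of −0.59 (SE 0.19). Zfp319 was not called without Filgotinib replicate 1 (−0.59) or 2 (−0.52) or without DMSO_s2 replicate 2 (−0.47).

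By class, and beside 6.10% higher and 14.6% lower over all genes tested, 9 of the 46 members with a KRAB box were higher with Filgotinib and 4 lower, with a median log2 fold change of 0.19. Of the 64 without, 8 were higher and 3 lower, with a median of 0.11. The 129 numbered Zfp genes with a mean under 50 had 5 higher and 16 lower and a median of 0.01, and among the 91 of these with a KRAB box 4 were higher and 7 lower, with a median of 0.21. Members near another member had 7 of 35 higher and 2 lower, and the others 10 of 75 higher and 5 lower. Among the 92 members with under 20% of windows shared, 15 were higher and 5 lower, and the median was 0.15. With the replicate block the counts were 11 and 5 with a KRAB box and 11 and 7 without, 8 and 18 in the less abundant genes and 7 and 8 in those of them with a KRAB box. They were 8 and 2 near another member, 14 and 10 elsewhere, and 19 and 9 with under 20% of windows shared. Over all 12714 genes tested the block gave 1283 higher and 2526 lower.

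The Filgotinib count depended on single samples. With every sample 24 members were called, 17 higher and 7 lower. Refitting called 14 members without Filgotinib replicate 1 (9 higher and 5 lower), 14 without replicate 2 (7 and 7), 20 without replicate 3 (11 and 9) and 15 without DMSO_s2 replicate 2 (9 and 6). Without DMSO_s1 replicate 3, 22 were called, 12 of them higher and 10 lower. These refits stand without the shares over all genes in the same fits. How far members moved apart from other genes was not tested.

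**Figure D2:**
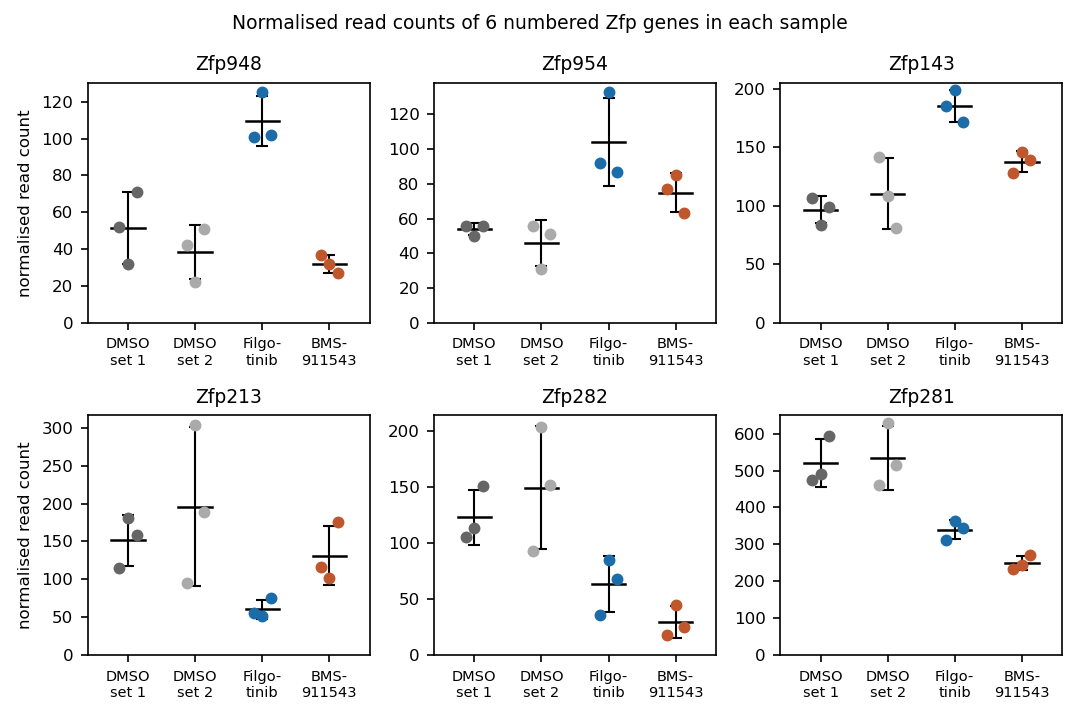
Normalised read counts (linear axes from 0) of 6 numbered Zfp genes in the 3 samples of each DMSO set, of Filgotinib and of BMS-911543, each point a sample, with the black bar and whiskers giving mean and SD of the 3. Zfp948, Zfp954 and Zfp143 stand above the DMSO samples with Filgotinib, Zfp213 below them with Filgotinib, and Zfp282 and Zfp281 below them with both inhibitors.

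BMS-911543, an inhibitor of JAK2, gave 8 lower members of 110, where 8.08% of all genes tested were lower by limma. Higher members numbered 0 by limma, where 0.472% of all genes were higher, and 21 of the 110 had an unadjusted p under 0.05 in either direction. As for Filgotinib, these counts are a description. The median log2 fold change of the members was 0.06, from −2.22 to 0.63, against 0.00 over all genes. Of the 8 lower members 7 have no KRAB box. The median was 0.17 in members with a KRAB box and −0.01 in the others.

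Zfp282 had 18, 45 and 25 normalised reads with BMS-911543 against 93 at lowest, 132 at the median and 203 at highest in DMSO. Each BMS-911543 sample lies far below the lowest DMSO value, and the log2 fold change was −2.22 (SE 0.35, n = 3 and 6). Zfp281 had 233, 244 and 270 against 460, 504 and 630, with samples close together and far from DMSO, and a log2 fold change of −1.07 (SE 0.16). Zfp444 had 70, 145 and 92 against 159, 170 and 366, with a log2 fold change of −1.08 (SE 0.28). Its replicate 2 comes near the lowest DMSO sample, while the DMSO samples numbered 2 had 285 and 366.

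Zfp664 had 40, 54 and 58 with BMS-911543 against 66 at lowest, 91.5 at the median and 109 at highest in DMSO, and a log2 fold change of −0.79 (SE 0.18). Zfp703 had 99, 149 and 89 against 171, 187 and 214, and a log2 fold change of −0.78 (SE 0.21). Zfp467 had 62, 84 and 86 against 108, 118.5 and 167, and a log2 fold change of −0.69 (SE 0.21). None of these overlaps DMSO. Without BMS-911543 replicate 1, 3 members were called in place of 8, and Zfp444 (−0.84), Zfp664 (−0.63), Zfp703 (−0.71) and Zfp467 (−0.54) were not among them. Zfp703 was also not called without BMS-911543 replicate 3 (−0.64), nor Zfp467 without DMSO_s2 replicate 2 (−0.61). Without DMSO_s1 replicate 3, 9 members were called, all lower. The counts without samples stand without the shares over all genes in the same fits, and nothing is read from them. With the replicate number in the model 12 were called, 1 of them higher. Over all 12714 genes tested that model gave 181 higher and 1398 lower.

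Filgotinib and BMS-911543 are compared with the same DMSO samples, so their values stand side by side with no test between them. Zfp281, Zfp282 and Zfp467 were lower with each of them. The log2 fold changes were −0.63 and −1.07 for Zfp281, −1.13 and −2.22 for Zfp282, and −0.86 and −0.69 for Zfp467, Filgotinib given before BMS-911543.

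The machinery that KRAB boxes recruit was followed through a list of 20 cofactor genes. With Filgotinib 2 of the 20 were higher and 4 lower, where 6.10% and 14.6% of all genes tested were, with a median log2 fold change of 0.06 against −0.04 over all genes, and with BMS-911543 0 were higher and 1 lower by limma, with 2 at an unadjusted p under 0.05. The replicate block gave 3 higher and 4 lower with Filgotinib, where 1283 and 2526 of all 12714 genes tested were. The shared corepressor Trim28 had log2 fold changes of 0.08 and −0.02 with Filgotinib and BMS-911543 (SE 0.25), and its partner Setdb1 −0.04 and 0.02 (SE 0.18), which did not pass the test. Hdac2, a histone deacetylase of the NuRD complex, was the gene lower with BMS-911543: it had 13, 23 and 19 against 24 at lowest, 80.5 at the median and 104 at highest in DMSO. The DMSO samples spread widely and by replicate number: those numbered 3 had 24 and 27, and the others lay between 80 and 104. The BMS-911543 sample numbered 3, at 19, comes close to the DMSO samples of its number. The log2 fold change was −1.68 (SE 0.39, limma adjusted p = 0.000765), and the call was lost when the model held BMS-911543 and DMSO alone.

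With Filgotinib, Hdac2 had 14, 42 and 35, which overlaps DMSO, and the sample numbered 3, at 35, lies above both DMSO samples of its number. The gene had a log2 fold change of −1.09 (SE 0.39, limma adjusted p = 0.0342). It was not called in 9 alternatives: with no filter, with either DMSO set alone as reference, with Filgotinib and DMSO alone in the model, and in 5 that leave out a sample. In those the log2 fold change was −0.62 without Filgotinib replicate 1, −0.94 and −1.0 without DMSO_s1 replicates 1 and 2, and −1.0 and −0.93 without DMSO_s2 replicates 1 and 2. Trim33, a relative of Trim28, had 49, 73 and 47 against 22, 26.5 and 35, with no overlap and a log2 fold change of 0.97, and 0.77, not called, without Filgotinib replicate 2. Mphosph8, the chromodomain subunit of the HUSH complex, had 135, 175 and 183 against 79, 118 and 132, while Pphln1, another HUSH subunit, had 383, 371 and 438 against 405, 487 and 606. The groups of Mphosph8 do not overlap and those of Pphln1 do. Their log2 fold changes were 0.54 and −0.33. Morc3, a silencing ATPase, had 453, 437 and 529 against 554, 702 and 1153, with a log2 fold change of −0.65. Cbx1, which encodes heterochromatin protein 1 beta, had 152, 196 and 248 against 219, 298 and 344, with overlap and a log2 fold change of −0.53. These calls too were lost without single samples. Cbx1 was not called without Filgotinib replicate 1 (−0.35) or 2 (−0.54) or DMSO_s2 replicate 2 (−0.47), and Morc3 without the same samples (−0.62, −0.59 and −0.52). Mphosph8 was not called without Filgotinib replicate 2 (0.49) or 3 (0.45) or DMSO_s2 replicate 1 (0.44), and Pphln1 without Filgotinib replicate 1 (−0.31) or 2 (−0.28), DMSO_s1 replicate 1 (−0.29) or DMSO_s2 replicate 3 (−0.27).

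Other zinc finger families were followed by symbol, beside shares over all genes tested of 6.10% higher and 14.6% lower with Filgotinib and 0.472% and 8.08% with BMS-911543. Of 33 numbered Zbtb genes, 3 were higher and 3 lower with Filgotinib, with a median log2 fold change of 0.13, and with BMS-911543 5 were lower, 0 higher by limma and 12 at an unadjusted p under 0.05, with a median of −0.17. Of 13 Zscan or Zkscan genes, 1 was higher and 2 lower with Filgotinib and 1 lower with BMS-911543, with medians of −0.03 and 0.21. Of 15 Zc3h genes, which encode RNA-binding CCCH fingers, 1 was higher and 1 lower with Filgotinib and 1 lower with BMS-911543, with medians of −0.06 and −0.1. In the model with the replicate block, 5 Zbtb genes were higher with Filgotinib, the Zscan or Zkscan genes had 2 higher and 3 lower, the Zc3h genes had 2 and 2, and 2 Zc3h genes were lower with BMS-911543. Over all 12714 genes that model gave 1283 higher and 2526 lower with Filgotinib, and 181 and 1398 with BMS-911543.

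Beside the members, 8 of 15 interferon response genes were lower with Filgotinib and 0 higher by limma. Over all genes tested 14.6% were lower and 6.10% higher. In the list, 10 genes had an unadjusted p under 0.05. The median of the list was −0.82. Socs1, the feedback inhibitor of JAK signalling, had 181, 314 and 258 with Filgotinib and 85, 316 and 108 with BMS-911543, against 618 at lowest, 2718.5 at the median and 5735 at highest in DMSO. The DMSO samples spread by replicate number: those numbered 3 had 618 and 754, and the others lay between 2451 and 5735. The Socs1 samples lie below DMSO with both inhibitors, by −3.05 (SE 0.55) and −3.82 (SE 0.55) in log2. Socs1 was the 1 interferon gene called with BMS-911543, where the list's median was 0.13.

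The transcription factor gene Stat2 had 639, 510 and 627 with Filgotinib against 1001 at lowest, 1366 at the median and 2636 at highest in DMSO, with no overlap. The antiviral genes Mx1, with 784, 687 and 489 against 936, 2446 and 3697, and Mx2, with 805, 657 and 468 against 1031, 1461 and 2847, lay below DMSO as well. So did Rsad2, with 15351, 11488 and 11473 against 18749, 32738.5 and 36278, and the ISG15 protease gene Usp18, with 890, 619 and 838 against 1492, 2181 and 2630. Ifit2 had 7853, 5490 and 4675 against 6662, 15646 and 23461, which overlaps. The lowest DMSO value of each of these 6 genes is that of DMSO_s1 replicate 3, and the next is that of DMSO_s2 replicate 3. The log2 fold changes of these genes ran from −1.16 for Rsad2 to −1.72 for Mx1, and Ifit2 was not called without Filgotinib replicate 3 (−1.03). Of 10 early LPS genes, 3 were higher and 1 lower with Filgotinib, where 6.10% and 14.6% of all genes tested were. With BMS-911543, 1 was higher and 1 lower, where 0.472% and 8.08% of all genes were. The replicate block gave 2 higher and 1 lower with BMS-911543, where 181 and 1398 of all 12714 genes were. The block gave 10 interferon response genes lower with Filgotinib in place of 8, where 2526 of all 12714 genes were.

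The share of mitochondrial transcripts, a measure of the libraries, was 1.77%, 2.52% and 1.22% in the Filgotinib samples against 0.759% at lowest, 0.989% at the median and 1.94% at highest in DMSO. The groups overlap, and the mean difference of 0.687 percentage points had a two-sided exact permutation p of 0.107 over 84 splits. The difference was 0.346 without Filgotinib replicate 2, and it was 0.847 without DMSO_s2 replicate 1, where it passed the threshold. With BMS-911543 the shares were 1.15%, 1.22% and 1.03%, inside the DMSO range, with a difference of −0.013 and an exact permutation p of 0.952. None of the 37 mitochondrial genes entered the members, and of the 17 tested 0 were called by limma with either inhibitor, and 0 had an unadjusted p under 0.05. Their median log2 fold change was 0.82 with Filgotinib and 0.05 with BMS-911543, and the part of this share in the member values was not tested. Among the other inhibitors described below, the share was 4.29%, 3.24% and 3.45% with Pimasertib, above every DMSO sample, and 4.01%, 2.57% and 1.35% with Tofacitinib, which overlaps DMSO.

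Promoters were searched because members that move together may share letters there. A RefSeq promoter window of 300 bases, from 250 before to 50 after the start in the build GRCm38.p6, was at hand for 90 members, for 9132 of the genes tested and for 27025 genes in all. The GAS motif, TTCNNNGAA, was present on either strand in 18 of the 90 member promoters, against 8.28% of those of tested genes and 9.55% of all. The interferon-type ISRE core, GAAANNGAA, was in 8, or 8.89%, against 9.07% and 9.76%. The ETS motif CCGGAAG was in 23, or 25.6%, against 21.5% and 9.93%. The E-box CACGTG was in 6 (6.67%, against 11.9% and 8.09%), the cyclic AMP element TGACGTCA in 4 (4.44%, against 3.53% and 2.03%), the NRF1 motif GCGCATGC in 6 (6.67%, against 6.04% and 3.05%) and the YY1 motif AAGATGGCG in 3 (3.33%, against 3.83% and 1.64%). With Filgotinib, where 6.10% of all genes tested were higher and 14.6% lower, 4 of the 18 members with a GAS match were higher and 2 lower, with a median log2 fold change of −0.07, and of the 72 without 13 were higher and 4 lower, with a median of 0.18. With the replicate block the counts were 4 and 3, and 17 and 8, where 1283 and 2526 of all 12714 genes tested were higher and lower. A match is a run of letters and not a measured site.

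The 3 members furthest below DMSO with Filgotinib and the member furthest above it are shown with their promoters, written 5′ to 3′ on the strand of the gene, with matches in capitals. Zfp213 is at chr17:23564177-23564476 on the minus strand. It has a GAS match, an ISRE core match and a pair of NRF1 matches on opposite strands that overlap each other. Zfp324 is at chr7:12965588-12965887 on the plus strand and has an ISRE core match and an ETS match, each on the opposite strand of the gene. Zfp282 is at chr6:47877305-47877604 on the plus strand and has a GAS match. Zfp948 is at chr17:21566728-21567027 on the plus strand and has no match to any of the motifs. Apart from the NRF1 pair, no matches in these windows overlap.
Zfp213: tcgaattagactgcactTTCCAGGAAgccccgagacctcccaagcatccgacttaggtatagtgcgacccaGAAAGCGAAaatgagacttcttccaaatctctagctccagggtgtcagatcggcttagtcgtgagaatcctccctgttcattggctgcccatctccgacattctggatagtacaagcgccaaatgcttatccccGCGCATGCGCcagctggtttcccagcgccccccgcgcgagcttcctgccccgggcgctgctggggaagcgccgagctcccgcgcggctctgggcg
Zfp324: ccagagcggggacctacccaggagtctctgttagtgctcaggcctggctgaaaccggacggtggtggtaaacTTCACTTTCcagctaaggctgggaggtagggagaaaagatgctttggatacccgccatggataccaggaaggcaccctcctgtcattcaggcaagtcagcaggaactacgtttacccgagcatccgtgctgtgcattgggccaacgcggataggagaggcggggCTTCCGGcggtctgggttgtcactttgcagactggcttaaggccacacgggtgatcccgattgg
Zfp282: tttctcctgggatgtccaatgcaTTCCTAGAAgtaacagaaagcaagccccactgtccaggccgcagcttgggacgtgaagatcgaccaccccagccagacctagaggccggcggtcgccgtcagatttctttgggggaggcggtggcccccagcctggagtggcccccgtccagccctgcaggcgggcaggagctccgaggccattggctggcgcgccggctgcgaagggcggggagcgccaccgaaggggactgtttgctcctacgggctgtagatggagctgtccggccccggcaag
Zfp948: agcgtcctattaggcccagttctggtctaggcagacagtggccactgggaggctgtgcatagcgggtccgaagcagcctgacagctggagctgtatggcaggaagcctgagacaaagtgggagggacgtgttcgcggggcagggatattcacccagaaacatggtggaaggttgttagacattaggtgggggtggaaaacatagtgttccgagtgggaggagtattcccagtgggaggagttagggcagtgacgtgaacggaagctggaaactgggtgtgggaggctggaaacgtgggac

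The other 56 inhibitors were tested against the same 6 DMSO samples, so their results are not independent of each other. Over all of them, limma called 230 pairs of a member and an inhibitor, 163 higher, where 2.50% of all pairs of a tested gene and an inhibitor were higher, and 67 lower, where 1.31% were lower. Members were called with 25 inhibitors, and with 31 inhibitors none was called by limma, with at most 26 members at an unadjusted p under 0.05 for any of these. With 11 inhibitors 5 or more members were called, and these hold 202 of the 230 calls. At least 1 call fell on 82 members, 58 of them higher and 29 lower with some inhibitor, and 5 in both directions. These counts of members stand without the share of all genes tested with such a call, and nothing is read from them.

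The split between higher and lower depended on how the samples were scaled. Scaling the samples again by the median of ratios gave 107 higher and 114 lower calls, so that 48.4% of calls were higher in place of 70.9%, and over all genes 1.55% higher and 2.09% lower. That scaling moved the median log2 fold change of all genes tested by between −0.19 and 0.04, and by over 0.1 with 12 of the 56 inhibitors. Scaling moves members and other genes alike, so it leaves the member median minus the all-gene median as it is, and this difference ran from −0.08 to 0.16 with a middle value of 0.01. For members with a KRAB box this difference ran from −0.1 to 0.24 with a middle value of 0.07, and for those without from −0.14 to 0.12 with a middle value of −0.02. The part in this of the low KRAB level of DMSO_s1 replicate 3 and DMSO_s2 replicate 2 was not tested. Members with a KRAB box had 86 higher and 20 lower calls, or 53 and 39 after the second scaling, and the others 77 and 47, or 54 and 75.

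Single samples also moved these counts. The 230 calls became 201 without DMSO_s1 replicate 3, 121 of them higher and 80 lower, 140 without DMSO_s2 replicate 2 (95 and 45) and 346 without DMSO_s2 replicate 1 (258 and 88). Leaving the replicates numbered 2 out of every group gave 72 (52 and 20), and leaving out those numbered 3 gave 170 (85 and 85). With the replicate number added to the model as a block the 230 calls became 408, 282 of them higher and 126 lower. These counts stand without the shares over all genes in the same fits, and how far members moved apart from other genes was not tested. Counts of single inhibitors below, with the block, without samples or after the second scaling, also stand without those shares unless these are given. Where the shares are absent, nothing is read from the counts.

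**Figure D3:**
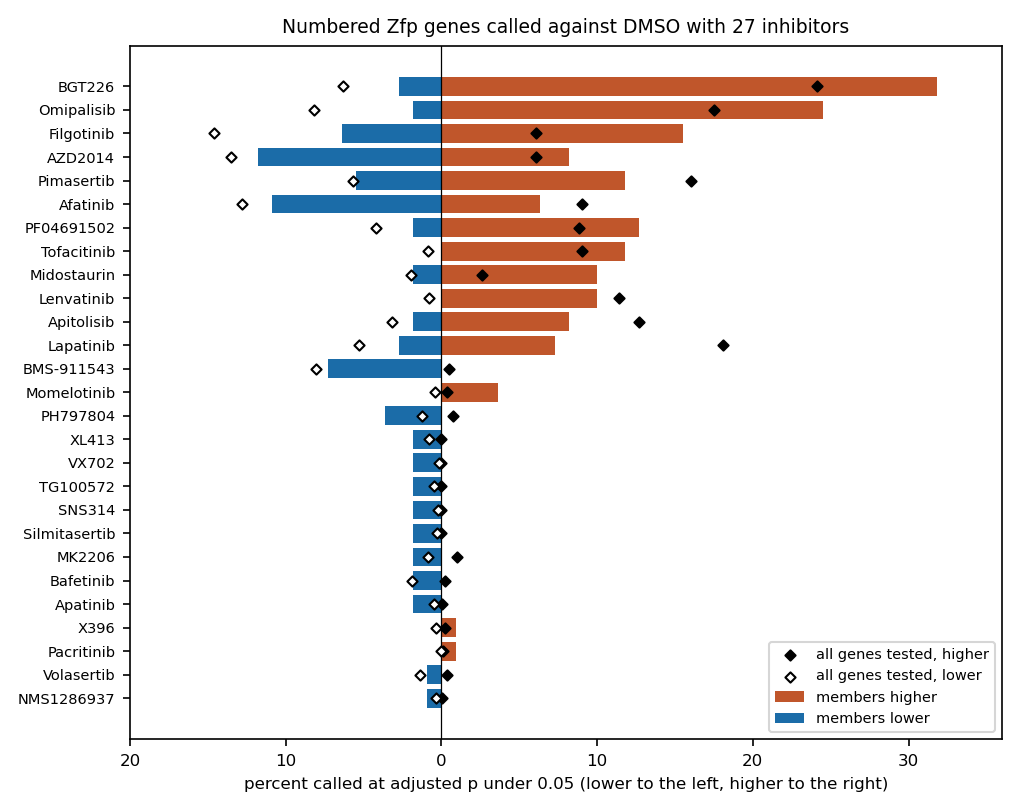
Percent of the 110 numbered Zfp genes called lower (blue, to the left) and higher (orange, to the right) against DMSO for the 27 inhibitors with any member called, with diamonds for the same percent over the 12714 genes tested, open for lower and filled for higher. The bars of BGT226 and Omipalisib are the longest to the right, where the diamonds stand far out too.

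The inhibitors with the most members called act on phosphoinositide 3-kinase (PI3K) and its downstream kinase mTOR. With BGT226, which blocks both kinases, 35 members were higher and 3 lower by limma, where 24.1% and 6.32% of all genes were. After the second scaling, which moved the all-gene median by −0.19, 27 were higher and 11 lower, with 15.9% and 15.1% over all genes. Zfp408 had the largest rise: 319, 253 and 343 normalised reads against 47 at lowest, 55.5 at the median and 93 at highest in DMSO, with every BGT226 sample far above every DMSO sample. The log2 fold change was 2.34 (SE 0.22, n = 3 and 6, limma adjusted p = 1.52e-17). Next came Zfp655, with 1064, 1321 and 971 against 197, 285.5 and 310, and Zfp142, with 160, 195 and 221 against 25, 52 and 70, both named after their values were seen. The lower calls numbered 5 without DMSO_s1 replicate 3 and 5 without the replicates numbered 3, and 6 with the replicate block.

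Omipalisib, which also blocks PI3K and mTOR, had 27 members higher and 2 lower, where 17.5% and 8.16% of all genes were, and 14 and 16 higher without the replicates numbered 2 and 3. After the second scaling, which moved the all-gene median by −0.1, 22 were higher and 4 lower, where 13.7% and 13.6% of all genes were. Zfp655, a KRAB gene, had 876, 894 and 783 against 197 at lowest, 285.5 at the median and 310 at highest in DMSO, with no overlap and a log2 fold change of 1.65 (SE 0.14, limma adjusted p = 1.44e-19). With AZD2014, an mTOR inhibitor, 9 members were higher and 13 lower, where 6.06% and 13.5% of all genes were. The AZD2014 counts were 6 and 8 without the replicates numbered 1, 4 and 6 without those numbered 2 and 5 and 23 without those numbered 3. Zfp282 had 27, 39 and 35 there, all below DMSO, and a log2 fold change of −1.95 (SE 0.35, limma adjusted p = 3.54e-06). How far these member shares differ from the shares over all genes was not tested.

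Afatinib, directed at the EGFR family, had 7 members higher and 12 lower, where 9.06% and 12.8% of all genes were. The Afatinib counts were 7 and 4, 2 and 2, and 7 and 25 without the replicates numbered 1, 2 and 3, 13 and 11 without DMSO_s2 replicate 1, 3 and 8 without DMSO_s2 replicate 2 8 and 18 without DMSO_s1 replicate 3, 7 and 17 after the second scaling and 14 and 16 with the replicate block. Zfp516, known as an activator of Ucp1 in brown fat, had 91, 113 and 260 against 132 at lowest, 396.5 at the median and 488 at highest in DMSO. Afatinib replicate 3 overlaps DMSO and the others do not. Its log2 fold change was −1.23 (SE 0.21, limma adjusted p = 5.78e-06), and −0.76 and −0.86 without the replicates numbered 1 and 2, where it was not called. Pimasertib, a MEK inhibitor, had 13 members higher and 6 lower, where 16.0% and 5.68% of all genes were, and 9 higher and 13 lower after the second scaling, which moved the all-gene median by −0.12 and gave 1260 higher and 1398 lower calls over all 12714 genes. The Pimasertib counts were 8 and 5 without DMSO_s1 replicate 3, 4 and 3 without DMSO_s2 replicate 2 and 1 and 3 without the replicates numbered 2, and 1 call was left without those numbered 3. They were 16 and 14 with the replicate block. Zfp52 had 155, 111 and 158 against 25, 80.5 and 111, with overlap at 111 and a log2 fold change of 0.99 (SE 0.3, limma adjusted p = 0.014). It was not called without the replicates numbered 2 (0.78) or 3 (1.01) or without DMSO_s2 replicate 2 (0.7).

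A few inhibitors with fewer calls, named after their values were seen, are the multikinase inhibitor Midostaurin and the JAK inhibitors Tofacitinib and Momelotinib. Midostaurin had 11 members higher, where 2.63% of all genes were, and 2 lower, where 1.93% were. The lower members were Zfp324, with 29, 26 and 31 against 58 at lowest, 101.5 at the median and 129 at highest in DMSO, and Zfp800, with 203, 158 and 240 against 252, 439 and 525. Neither overlaps DMSO, and their log2 fold changes were −1.69 and −1.04. The Midostaurin counts were 9 and 3 after the second scaling and 3 and 5 without the replicates numbered 3, and no call was left without those numbered 2. Tofacitinib had 13 higher, where 9.02% of all genes were, but 3 without DMSO_s1 replicate 3, 1 without DMSO_s2 replicate 2, 25 without DMSO_s2 replicate 1 and 1 without the replicates numbered 3. It lost all of these calls without the replicates numbered 2 and after the second scaling, which moved the all-gene median by −0.16. Momelotinib had 4 higher, where 0.378% of all genes were, and 1 after the second scaling, 1 without DMSO_s2 replicate 2 and 2 without DMSO_s1 replicate 1 or 2 or DMSO_s2 replicate 3. It had 1 without the replicates numbered 2 or 3 and lost all without those numbered 1. Among the 4 is Zfp655, with 397, 430 and 395 against 197 at lowest, 285.5 at the median and 310 at highest in DMSO. No Momelotinib sample of Zfp655 overlaps DMSO. With the replicate block the higher members numbered 24 with Midostaurin, 25 with Tofacitinib and 9 with Momelotinib. The shares over all genes above are those without the block, so nothing is read from these counts. The differences between these inhibitors and Filgotinib or BMS-911543 were not tested.

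With every sample and no replicate block, Zfp281 was the member called with most inhibitors. It was lower with 16 of the 56, and with Filgotinib and BMS-911543, and the log2 fold changes of these 18 ran from −0.56 to −1.49. These comparisons share the DMSO samples, whose mean of 527.8 stands near the upper end of the conditions, against 404.8 over all 180 samples. In each of the 18 the inhibitor samples all lay below the lowest DMSO value of 460. The lowest values were those of AZD2014, at 187, 176 and 196, with a log2 fold change of −1.49 (SE 0.16, n = 3 and 6, limma adjusted p = 1.02e-12). Afatinib followed with 266, 234 and 238, and the p38 inhibitor PH797804 with 267, 289 and 240. These 3 conditions, with BMS-911543, hold the lowest means and overlap each other, apart from AZD2014. At the other end stood Neratinib with 457, 402 and 1183 and the MEK inhibitor Selumetinib with 592, 737 and 598, neither called, and the mean of Neratinib rests on its replicate 3. Over the alternatives the number of the 56 ran from 6, without the replicates numbered 2, to 19, and was 8 with DMSO_s1 alone and 9 with DMSO_s2 alone as reference. Zfp282 was called with more of them with the replicate block, 21 against 19, and without the replicates numbered 1, 13 against 11. The Zfp281 mean was below that of DMSO with 54 of the 58 inhibitors.

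**Figure D4:**
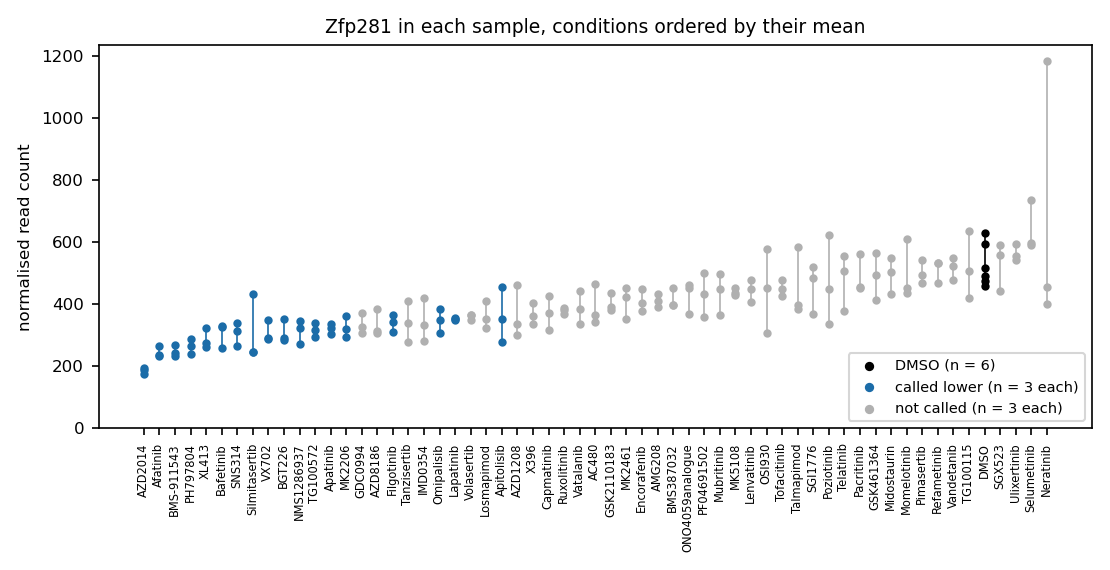
Zfp281 normalised read count (linear axis from 0) in each of the 180 samples, with the 59 conditions ordered by their mean, DMSO in black, conditions called lower in blue and the others in grey, and a line joining the lowest and highest sample of each condition. The 18 blue conditions lie below the DMSO samples, whose lowest value is 460, and the means of Selumetinib and Neratinib stand highest.

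Zfp282 was lower with 13 of the 56 inhibitors, and with Filgotinib and BMS-911543. The log2 fold changes ran from −1.09 to −2.22, and no sample in these 15 conditions reached the lowest DMSO value of 93. XL413 had 36, 33 and 41 and Silmitasertib 42, 44 and 41, the tightest groups of the set. Momelotinib had the highest mean, 193, with 149, 237 and 192, which overlaps DMSO. The number of the 56 was 1 without the replicates numbered 2, 6 without those numbered 3, 8 without DMSO_s2 replicate 2 and 18 without DMSO_s2 replicate 1. It was 3 with DMSO_s1 alone and 8 with DMSO_s2 alone as reference, and 21 with the replicate block. Of all members Zfp282 varied most between inhibitors, with an SD of 0.63 over the inhibitor means in log2.

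Zfp954 was higher with 10 of the 56 inhibitors and with Filgotinib, by 0.72 to 1.25 in log2, and in none of these did a sample overlap the DMSO range of 31 to 56. Afatinib was at the top with 119, 134 and 103. Zfp52 was higher with 9 and with Filgotinib, by 0.86 to 1.33, and in 6 of these 10 the samples lay above the highest DMSO value of 111. Without DMSO_s2 replicate 2, whose values of 31 and 25 are the lowest of DMSO for these genes, Zfp954 was called with 5 of the 56 and Zfp52 with 3. Zfp954 was called with 5 and 2 without the replicates numbered 1 and 2, and Zfp52 with 1 and 5 without those numbered 2 and 3. With DMSO_s1 alone as reference Zfp954 and Zfp52 were each called with 3, and with DMSO_s2 alone with 6 and 7. The highest numbers over the alternatives were 13 for Zfp954 and 12 for Zfp52. Zfp263 went both ways: it was higher with 6 of the 56 and with Filgotinib, by 0.27 to 0.51, and lower with 3, by −0.41 to −0.48. Its highest group was Momelotinib with 3293, 3051 and 3076, and its lowest Volasertib, a polo-like kinase inhibitor, with 1651, 1569 and 1523. Zfp263 was called with 3 of the 56 without the replicates numbered 1. Neither of the extreme groups overlaps DMSO, where Zfp263 lay between 2125 and 2325.

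Over all 59 conditions, the members varied about as much as other genes. The SD of log2 values within conditions had a median of 0.29 in the members and of 0.31 over all genes tested, and of 0.27 over the 8834 genes in the members' range of means. The SD between inhibitor means had a median of 0.22, against 0.23 over all genes and 0.2 in that range. Among members the SD within conditions was smallest for Zfp263, at 0.13, and largest for Zfp429, at 0.55, and the SD between inhibitor means was smallest for Zfp207, at 0.09. The mean log2 level over all members ran from 6.85, with AZD2014, GDC0994 and Silmitasertib, to 7.29 with BGT226, whose samples lay between 7.25 and 7.35, with DMSO at 6.66, 6.96 and 7.04 at lowest, median and highest. The mean over all genes tested was highest with BGT226 too, at 7.66 against 7.38 in DMSO.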

How the data were processed

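The values are scores: per the deposited file and the study's methods, the authors counted exonic reads per gene, scaled each sample on genes that did not vary between samples and rounded to whole numbers. Per the submitters' notes, reads were aligned to mm10 with TopHat2 2.1.1, filtered with bedtools 2.29.2 and processed in R 3.6.2 with DESeq2. The members and gene lists were chosen with earlier results of these data known.

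Values were taken as log2 with 1 added. For the 12714 genes whose mean reached 10, limma 3.58.1 in R 4.3.3 was fitted to the 180 samples in 59 groups, letting the variance depend on the level, and p-values of each inhibitor were adjusted by Benjamini-Hochberg over those genes. Replicate numbers were checked as pairs by correlating residuals against DMSO or between the DMSO sets. Those of the DMSO sets were 0.514, 0.237 and 0.322, those of BMS-911543 0.297, 0.169 and 0.253 and those of Filgotinib 0.383, 0.008 and 0.364. All 3 were over 0.1 for 34 of 58 inhibitors and not for the other 24, Filgotinib among them. The model planned without a replicate term was kept for all inhibitors. The member counts with Filgotinib, with BMS-911543 and over the other inhibitors together are also given with the replicate block. For single other inhibitors they are given in part.

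Genes are named by rule: with Filgotinib and BMS-911543, up to 6 members in each direction with the largest called differences and no overlap with DMSO; the 5 most abundant members; 3 on each side of the mean of 50; the 5 members called with the most other inhibitors; for the 5 other inhibitors with the most calls, the member with the largest change in the commoner direction; and cofactor and interferon genes from among those called. Genes outside it are named in the text as chosen after their values were seen, for a sequence feature or as the extreme of a range. Trim28 and Setdb1 were not called and are named as shared KRAB cofactors.

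KRAB boxes and fingers were counted in translated GENCODE M21 coding sequences, in place of the RefSeq proteins first planned. Counts, motifs and exact tests were computed in Python 3.11.15 (scipy 1.17.1, pandas 2.3.3, numpy 2.4.6), and plots were drawn with matplotlib 3.10.9.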

Additional observations from a re-analysis of the deposited data

Results flagged for a closer look

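Of 46 groups of DMSO values examined, 5 had 1 sample far from the other 5, where chance gives about 1 in 20 groups. The mean log2 level of the members was 6.66 in DMSO_s1 replicate 3, below the other DMSO samples. Zfp638 was at 81 in the same sample, where the next value was 179. Zfp954 was at 31 in DMSO_s2 replicate 2, where the next was 50. Zfp467 was at 167 in DMSO_s2 replicate 2, where the next was 129. Zfp408 was at 93 in DMSO_s2 replicate 1, where the next was 64. Among the 110 members, 11 had such a sample in DMSO, or 10.0%, against 6.02% of all genes tested. What set these samples apart was not tested.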

How the results depend on the processing

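Leaving aside the members named for their calls with Filgotinib or BMS-911543, 21 comparisons of a named gene with an inhibitor remain. Of these 11 passed the threshold in every alternative that was run and 0 reversed direction. As these genes too were named because they were called, the counts describe the calls and do not test them. The 21 passed with median of ratios scaling, a pseudocount of 0.5 or 10, no variance trend and the replicate block. With DMSO_s1 alone as reference 8 did not pass, with DMSO_s2 alone 4, with no filter 2, and when a fit held just the inhibitor and DMSO 7 of 16. Where counts below moved, the cause was not tested. The member counts below stand without the shares over all genes in the same fits, and nothing is read from them.

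With Filgotinib, 24 members were called, 17 higher and 7 lower. With no filter 11 were higher. With DMSO_s1 alone 13 were called, 8 of them higher, and with just the inhibitor and DMSO in the fit 9, 4 of them higher. With the replicate block 22 were higher and 12 lower. Leaving out 1 sample gave 14 to 28 calls, 7 to 20 higher and 5 to 10 lower, and a median log2 fold change of 0.06 to 0.19.

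With BMS-911543, 8 members were called, all lower, and the median log2 fold change was 0.06. With median of ratios scaling 1 was higher, with DMSO_s1 alone 1 was higher and 5 lower, and with just the inhibitor and DMSO in the fit 4 were called, all 4 lower. With DMSO_s2 alone the median was 0.02. With the replicate block 1 was higher. Leaving out 1 sample gave 3 to 11 calls, 0 to 2 higher by limma and 3 to 10 lower, and a median of 0.01 to 0.09.

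With the other 56 inhibitors, 230 calls became 107 higher and 114 lower with median of ratios scaling. They became 123 (93 higher and 30 lower, with 15 inhibitors) with DMSO_s1 alone, 149 (90 higher, with 16 inhibitors) with DMSO_s2 alone and 408 (282 higher and 126 lower) with the replicate block. Leaving out 1 replicate number, or 1 DMSO sample, gave 72 to 346 calls, 52 to 258 higher, 20 to 88 lower and 10 to 30 inhibitors. Leaving out DMSO samples for these inhibitors was added after DMSO_s1 replicate 3 was seen to lie low.

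The mitochondrial share difference was 0.346 to 0.998 with Filgotinib and −0.0908 to 0.146 with BMS-911543 when 1 sample was left out, and 0.847 without DMSO_s2 replicate 1, where Filgotinib passed the threshold in the exact permutation test.

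For 24 of 58 inhibitors at least 1 correlation was 0.1 or lower, down to −0.523. That does not show that their replicate numbers are unrelated to those of DMSO. Of the 174 inhibitor samples, 126 correlated best with the DMSO samples of their own number, 2 of 3 with Filgotinib and 3 of 3 with BMS-911543.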
